A study of Mus musculus with 6 samples.

Results

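The 39 Hox genes of the mouse, all genes whose symbol is Hox followed by a, b, c or d and a number, were chosen by that name from 49943 annotated genes (RefSeq, GRCm38.p6, the assembly of build mm10). They lie in 4 clusters: Hoxa with 11 genes (chromosome 6, 52155367 to 52260880), Hoxb with 10 (chromosome 11, 96194316 to 96368254), Hoxc with 9 (chromosome 15, 102921131 to 103036856) and Hoxd with 9 (chromosome 2, 74668225 to 74765142). DNA methylation of these clusters was read in MBD-seq of whole mouse lung, in which fragments that bind a methyl-CpG-binding domain protein are captured and sequenced, and a peak is a stretch of the genome that the capture enriched. The 6 libraries came from mice aged 12 to 16 months, 3 transgenic and 3 wild type. The transgenic mice carried SPC-DNMTdelta3B/DG, a deletion variant of the de novo methyltransferase DNMT3B under the promoter of the surfactant protein C gene, which is active in alveolar type 2 cells. Those cells are a fraction of whole lung, so a change in them is diluted by the DNA of all other cells, and the founder line of each animal is not given. The wild-type mice carried no transgene and were of the same age range. DNA alone was measured, so the tissue label could not be checked against marker RNA.

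Hox proteins are homeodomain transcription factors that give cells their position along the body axis. In each cluster the low-numbered genes lie at one end and are used early and towards the head, and the high-numbered genes lie at the other end and are used late and towards the tail. Clusters of genes that are held silent by Polycomb proteins often keep their CpG-rich DNA unmethylated, while DNA methylation within Hox clusters is known from tumours, lung tumours among them. Hoxa5 and Hoxb5 are known for roles in the branching and maturation of the developing lung.

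The main pattern was a division between clusters. The Hoxc and Hoxd clusters and the 50 kb on each side of them held 0 peaks in all 6 lists, transgenic and wild type alike, while Hoxa and Hoxb carried peaks in every list. Within Hoxa and Hoxb the peaks lay mainly from group 3 to group 7 and between the genes, and the genes of groups 10 to 13 had none. No Hox gene separated transgenic from wild-type lungs.

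The promoter sequences below, from RefSeq (GRCm38.p6), show the CpG content that capture depends on, because a peak needs methylated CpGs. RefSeq gave 24 promoter windows for 22 of the 39 genes, each of 300 bases from 250 before to 50 after a gene's start. Of these 24 windows, 1 lay under a peak in any list, that of Hoxa5, in transgenic replicate 1. The windows shown are that one, the noncoding gene Gm15050 inside the Hoxa3 span, which lay under a peak in 4 lists, and 4 Hox windows with no peak in any list that range from CpG-poor to CpG-rich. They were chosen after their values were seen. CG is in capitals, and each is written 5′ to 3′ on the strand of its gene.
Hoxa5 promoter, chr6:52204538-52204837, minus strand, 29 CpGs, peak in 1 list: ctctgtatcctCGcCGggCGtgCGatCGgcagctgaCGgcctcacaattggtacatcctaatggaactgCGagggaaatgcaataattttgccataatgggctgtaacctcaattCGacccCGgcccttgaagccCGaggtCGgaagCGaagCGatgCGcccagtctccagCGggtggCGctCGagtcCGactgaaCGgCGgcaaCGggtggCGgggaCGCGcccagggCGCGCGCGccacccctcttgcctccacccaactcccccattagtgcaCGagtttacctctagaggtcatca
Gm15050 promoter, chr6:52172631-52172930, plus strand, 25 CpGs, peak in 4 lists: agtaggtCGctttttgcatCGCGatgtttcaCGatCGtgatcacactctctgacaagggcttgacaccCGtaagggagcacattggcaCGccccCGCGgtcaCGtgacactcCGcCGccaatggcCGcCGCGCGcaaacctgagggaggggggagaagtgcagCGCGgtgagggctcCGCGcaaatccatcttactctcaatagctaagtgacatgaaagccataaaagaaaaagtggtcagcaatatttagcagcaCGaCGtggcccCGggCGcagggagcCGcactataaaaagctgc
Hoxd1 promoter, chr2:74762730-74763029, plus strand, 29 CpGs, no peak: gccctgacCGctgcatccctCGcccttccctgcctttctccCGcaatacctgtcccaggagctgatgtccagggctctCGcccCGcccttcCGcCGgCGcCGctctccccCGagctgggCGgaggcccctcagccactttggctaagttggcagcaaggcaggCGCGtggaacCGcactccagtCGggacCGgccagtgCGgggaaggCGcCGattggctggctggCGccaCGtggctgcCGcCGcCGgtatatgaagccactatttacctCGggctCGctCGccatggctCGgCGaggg
Hoxd13 promoter, chr2:74667975-74668274, plus strand, 37 CpGs, no peak: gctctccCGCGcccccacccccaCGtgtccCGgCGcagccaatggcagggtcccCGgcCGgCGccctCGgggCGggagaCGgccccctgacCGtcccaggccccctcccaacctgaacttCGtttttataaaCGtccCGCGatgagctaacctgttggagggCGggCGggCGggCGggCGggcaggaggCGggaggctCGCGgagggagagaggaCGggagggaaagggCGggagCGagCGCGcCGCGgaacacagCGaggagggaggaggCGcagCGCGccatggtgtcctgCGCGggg
Hoxa13 promoter, chr6:52260831-52261130, minus strand, 45 CpGs, no peak: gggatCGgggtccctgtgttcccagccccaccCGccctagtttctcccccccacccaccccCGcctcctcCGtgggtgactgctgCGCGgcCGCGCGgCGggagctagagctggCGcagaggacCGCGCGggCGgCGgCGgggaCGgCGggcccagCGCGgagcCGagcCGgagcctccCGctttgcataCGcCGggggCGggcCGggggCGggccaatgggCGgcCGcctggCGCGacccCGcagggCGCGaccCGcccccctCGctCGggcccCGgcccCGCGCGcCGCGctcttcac
Hoxa9 promoter, chr6:52227321-52227620, minus strand, 4 CpGs, no peak: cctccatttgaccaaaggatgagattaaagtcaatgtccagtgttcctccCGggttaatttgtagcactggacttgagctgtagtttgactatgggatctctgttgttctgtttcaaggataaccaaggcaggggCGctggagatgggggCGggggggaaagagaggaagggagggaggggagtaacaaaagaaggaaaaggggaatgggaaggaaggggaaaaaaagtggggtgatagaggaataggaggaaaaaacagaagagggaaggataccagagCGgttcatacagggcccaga
Hoxa5 and Hoxd1 had the same number of CpGs in these windows. The Hoxa5 window lay wholly under the peak of transgenic replicate 1, over 300 of 300 bases, and under none in the other 5 lists. The Gm15050 window had 300, 265 and 185 bases under peaks in transgenic replicates 1, 2 and 3, against 0, 287 and 0 in wild-type replicates 1, 2 and 3.

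The Hox windows held more CpGs at the median than all promoter windows, and those with 20 or more came from Hoxa and Hoxd alone. The median was 14.5 CpGs in the 24 Hox windows, with a range of 4 to 45, and 7 CpGs in all 32851 promoter windows of the table. Over all promoters, 371 of 8701 windows with 20 or more CpGs (4.26%) had a peak in any list, against 2225 of 24150 windows with fewer (9.21%). Of the Hox windows, 1 of 11 with 20 or more CpGs and 0 of 13 with fewer had a peak. All 11 were of Hoxa or Hoxd genes. The Hoxb windows, of Hoxb8, Hoxb4 and Hoxb1, had 13, 14 and 10 CpGs. The only Hoxc window, that of Hoxc4, had 9, so the CpG content of the other Hoxc promoters is not known here. With 24 windows these Hox counts are small, and no test was made over windows.

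**Figure D1:**
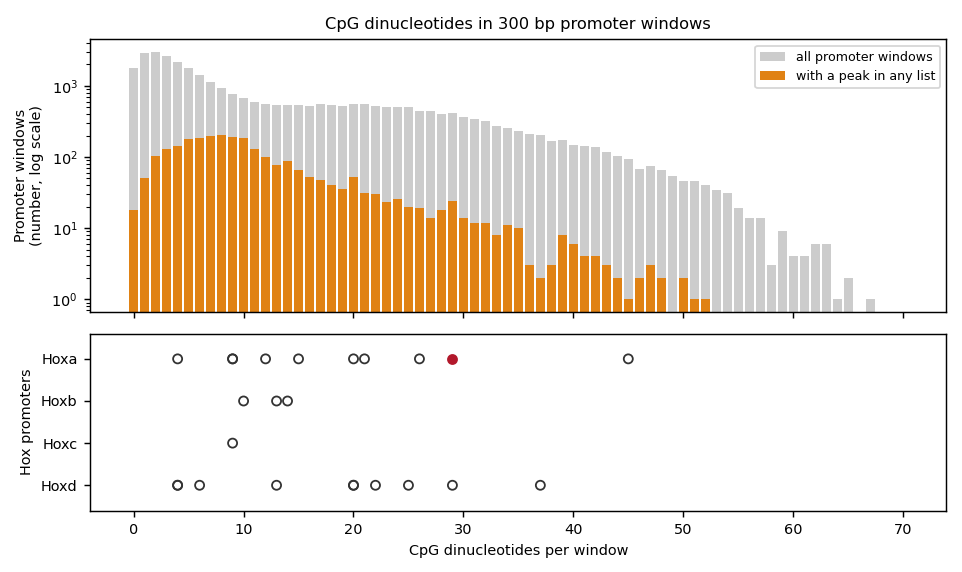
The upper panel gives the number of promoter windows of 300 bases (log scale) by their count of CpG dinucleotides, in grey for all 32851 windows and in orange for those with a peak in any of the 6 lists. The lower panel gives the 24 Hox windows by cluster, filled red for the single window with a peak (Hoxa5, 29 CpGs) and open for the others, which reach 45 CpGs without a peak.

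The depth of the reads is unknown, and the peak lists stand in for it in part. The lists held 120349, 116352 and 78952 peaks in transgenic replicates 1, 2 and 3, against 60131, 111211 and 30640 in wild-type replicates 1, 2 and 3. Peaks covered 2.50%, 2.12% and 1.38% of the autosomes in the transgenic lists, against 1.03%, 2.14% and 0.265% in the wild-type lists. Wild-type replicates 1 and 3 thus had the shortest lists, and every count of peaks at a Hox gene has to be read beside these lengths. A place without a peak is one where the authors' peak caller found no enrichment past its lowest score, which was 50 in every list. Unmethylated DNA, DNA with few CpGs and a shallow library cannot be told apart there.

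The Hoxc and Hoxd clusters were without peaks over long distances. Around Hoxc the stretch without a peak spanned 271, 307 and 294 kb in transgenic replicates 1, 2 and 3, against 363, 294 and 373 kb in wild-type replicates 1, 2 and 3. Around Hoxd it spanned 240, 252 and 279 kb in the transgenic lists, against 376, 252 and 599 kb in the wild-type lists. The shortest stretch at both clusters was that of transgenic replicate 1, which had the longest list. The peaks are numbered without a missing number in all 6 lists, so no number was removed after the peaks were named; filters applied before naming were not examined.

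With the 6 lists joined, the peak-free stretch at Hoxc ran from 102832201 to 103103516 on chromosome 15 (271 kb) and held all 9 Hoxc genes and no other protein-coding gene. That at Hoxd ran from 74603377 to 74843713 on chromosome 2 (240 kb) and held all 9 Hoxd genes and Evx2, a homeobox gene next to Hoxd13. Of 158058 autosomal stretches between peaks, with a median of 6.51 kb, these ranked 78th and 135th by length. Of the 135 stretches at least as long as that at Hoxd, 118 held no protein-coding gene. Only 4 held 8 or more such genes: those of Hoxc and Hoxd and 2 on chromosome 2, whose 13 and 12 protein-coding genes were all olfactory receptor genes. A stretch can also be long where the assembly lacks sequence, which was not examined here.

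**Figure D2:**
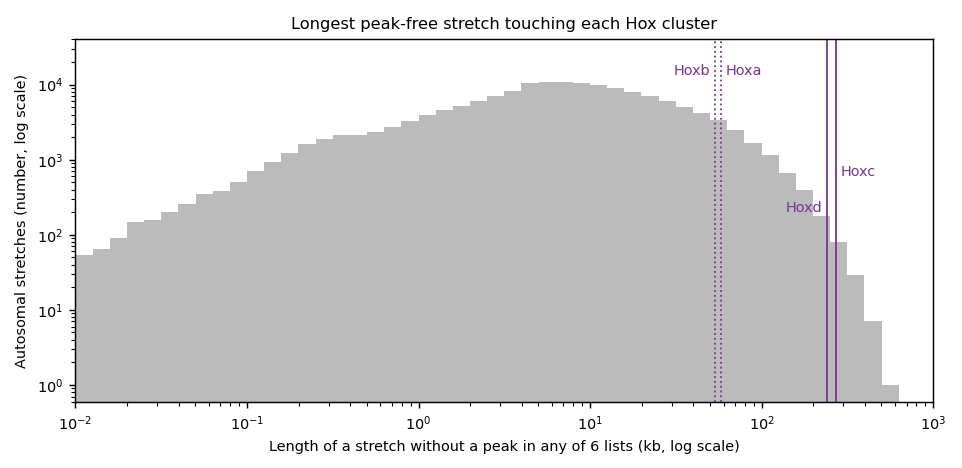
The bars give the number of autosomal stretches without a peak in any of the 6 lists (log scale) by their length in kb (log scale), and the lines mark the longest stretch touching each Hox cluster. The lines of Hoxc (271 kb) and Hoxd (240 kb) lie in the far right tail, and those of Hoxa (57.9 kb) and Hoxb (53.2 kb) lie further left.

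The share of each cluster under peaks was set beside the rest of its chromosome in the same list. For Hoxc the share was 0% in all 6 lists, against 1.66 ± 0.888% of the rest of chromosome 15 (SD, n = 6 libraries), and for Hoxd it was 0%, against 1.44 ± 0.784% of the rest of chromosome 2. Both were lower in 6 of 6 libraries, and the 2-sided exact sign-flip permutation test gave p = 0.031, the smallest that 6 pairs can give. After Benjamini-Hochberg adjustment over 8 tests of clusters this was p = 0.0833 in the permutation test, which does not pass 0.05. A cluster at 0 in every list gives this p whatever the size of the difference. Hoxa and Hoxb together had 2.10 ± 1.91% under peaks, against 0% of Hoxc and Hoxd together (SD, n = 6 libraries), and were higher in 6 of 6 libraries. This contrast was formed after the 0 was seen and was given no test. It was 1.16 percentage points with peaks at or above the median score of all lists (96.3), and 0.397 over the 30640 highest-scoring peaks of each list. Over those peaks the difference from the chromosome was -0.716 points for Hoxc, -0.614 for Hoxd, -0.615 for Hoxa and -0.0335 for Hoxb. At this setting Hoxa kept a peak in wild-type replicate 3 alone, so the contrast rested almost wholly on Hoxb.

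Hoxa and Hoxb each lay above their chromosome in some libraries and below it in others. In Hoxa, peaks covered 7.64%, 1.87% and 1.97% of the cluster in transgenic replicates 1, 2 and 3, against 0.399%, 3.63% and 0.147% in wild-type replicates 1, 2 and 3. The rest of chromosome 6 had 2.20%, 1.90% and 1.27% under peaks in the transgenic lists, against 0.970%, 1.87% and 0.253% in the wild-type lists. Hoxa was above its chromosome in 3 libraries and below it in 3, with a mean difference of 1.20 percentage points (exact sign-flip permutation p = 0.25). Over the 30640 highest-scoring peaks of each list this difference was -0.615 points (permutation p = 0.031), so its direction depends on how many peaks are taken. At this setting Hoxa kept a peak in wild-type replicate 3 alone, with 0.147% against 0.253% of the chromosome. The other lists kept no Hoxa peak and could only fall below their chromosome, so this p decides nothing. In Hoxb, peaks covered 4.03%, 1.61% and 1.83% in the transgenic lists, against 0.518%, 2.61% and 0.183% in the wild-type lists. Hoxb was likewise above its chromosome in 3 libraries and below it in 3, with a mean difference of 0.0376 percentage points (exact sign-flip permutation p = 0.94), and -0.182 points without transgenic replicate 1. Its 173939 bases include the spacer between Hoxb13 and Hoxb9. From Hoxb9 to Hoxb1 alone the share was 5.13%, 2.16% and 2.62% in the transgenic lists, against 0.510%, 3.56% and 0% in the wild-type lists.

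Against its own flanks, Hoxa carried more peak sequence. The 50 kb on each side had 0.607%, 1.10% and 0.309% under peaks in transgenic replicates 1, 2 and 3, against 0.289%, 1.68% and 0% in wild-type replicates 1, 2 and 3. The cluster was above its flanks in 6 of 6 libraries, by a mean of 1.95 percentage points (exact sign-flip permutation p = 0.031, adjusted p = 0.0833). Transgenic replicate 1 carried much of this, and without it the mean was 0.929 points, from 5 pairs that cannot give a permutation p below 0.0625. With flanks of 100 kb the mean difference was 1.47 points and the permutation p = 0.0938. With each list held to its 30640 highest-scoring peaks it was 0.0245 points (permutation p = 1). The Hoxa cluster then held a peak in wild-type replicate 3 alone and its flanks held none, so this p was fixed and decides nothing. Hoxb was above its 50 kb flanks in 3 of 6 libraries, with a mean difference of 0.335 points (exact sign-flip permutation p = 0.50). It was 0.623 points over the 30640 highest-scoring peaks of each list and 1.8 points with flanks of 20 kb, each with a permutation p = 0.031. At both settings the Hoxb flanks held no peak in any list, while every list had a peak in the cluster. Both p-values were thus fixed and decide nothing, and the size of the difference depends on the peaks and flanks taken.

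**Figure D3:**
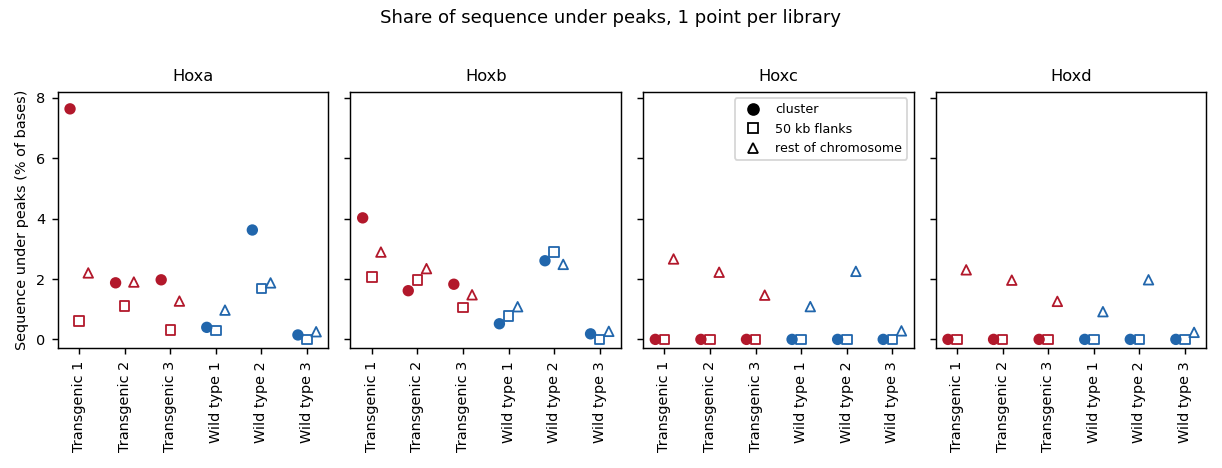
Each panel is a cluster and gives, for each of the 6 libraries, the percent of bases under peaks in the cluster (filled circles), in the 50 kb flanks (open squares) and in the rest of the chromosome (open triangles), in red for transgenic and blue for wild type. Hoxc and Hoxd sit at 0 in all libraries, in cluster and flanks, and the highest point is Hoxa in transgenic replicate 1 (7.64%).

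Transgenic and wild-type lungs did not separate at any cluster. The Hoxa share averaged 3.83 ± 3.30% in transgenic and 1.39 ± 1.94% in wild-type lungs (SD, n = 3 each; 2-sided exact permutation p = 0.40, adjusted p = 0.53). The Hoxb share averaged 2.49 ± 1.34% in transgenic and 1.10 ± 1.31% in wild-type lungs (SD, n = 3 each; exact permutation p = 0.30, adjusted p = 0.48). With 3 animals against 3 this test cannot go below 0.10. The groups overlapped at both clusters, since wild-type replicate 2 lay above transgenic replicates 2 and 3. Transgenic replicate 2 and wild-type replicate 2 had lists of like length (116352 and 111211 peaks), and there the Hoxa share was 1.87% in the transgenic and 3.63% in the wild-type library. For Hoxb it was 1.61% in the transgenic and 2.61% in the wild-type library. With each list held to its 30640 highest-scoring peaks, the Hoxa difference between the group means was -0.049 percentage points in place of 2.44, and the Hoxb difference 0.264 in place of 1.39. That Hoxa value came from 1 peak of wild-type replicate 3 (score 60.2), whose list is kept whole at this setting. The other lists kept no Hoxa peak, so it does not compare the groups. Hoxc and Hoxd had 0 in both groups, and no test applied.

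The joined peaks formed 26 islands inside the clusters, 12 in Hoxa and 14 in Hoxb. In Hoxa they were 223 to 1797 bases wide and made up 8.51% of the cluster, and in Hoxb they were 306 to 791 bases wide and made up 4.71%. Of the 26 islands, 15 had peaks in both groups, 10 in transgenic lists alone and 1 in wild-type lists alone. Over all 166001 joined regions of the genome, 26.0% had peaks in transgenic lists alone and 11.4% in wild-type lists alone. None of the 26 had a peak in all 3 transgenic and no wild-type list, or the reverse, patterns held by 1.80% and 0.0145% of all regions. A peak in 3 or more lists was found at 13 of the 26 islands, against 55.5% of all regions, and 8 were in 1 list alone.

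The authors' deposited table of differential regions held none in the clusters or their 50 kb flanks. The table lists 407 regions, which is 0.441% of the 92205 joined regions with peaks in 3 or more lists. The clusters and flanks had 17 such regions, so a count of 0 is near what that share gives. The table shows the listed regions alone, and p-values of the others were not analysed here. The listed region closest to a cluster lay 374 kb from Hoxc, at 103410493 to 103412799 on chromosome 15. Its log2 concentration in the authors' deposited table was 7.67 in transgenic and 7.13 in wild-type lungs (log2 fold 0.54, FDR 0.000606). For Hoxd, Hoxa and Hoxb the closest listed regions were 3247.5, 4090.5 and 14289.8 kb away in the authors' deposited table.

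**Figure D4:**
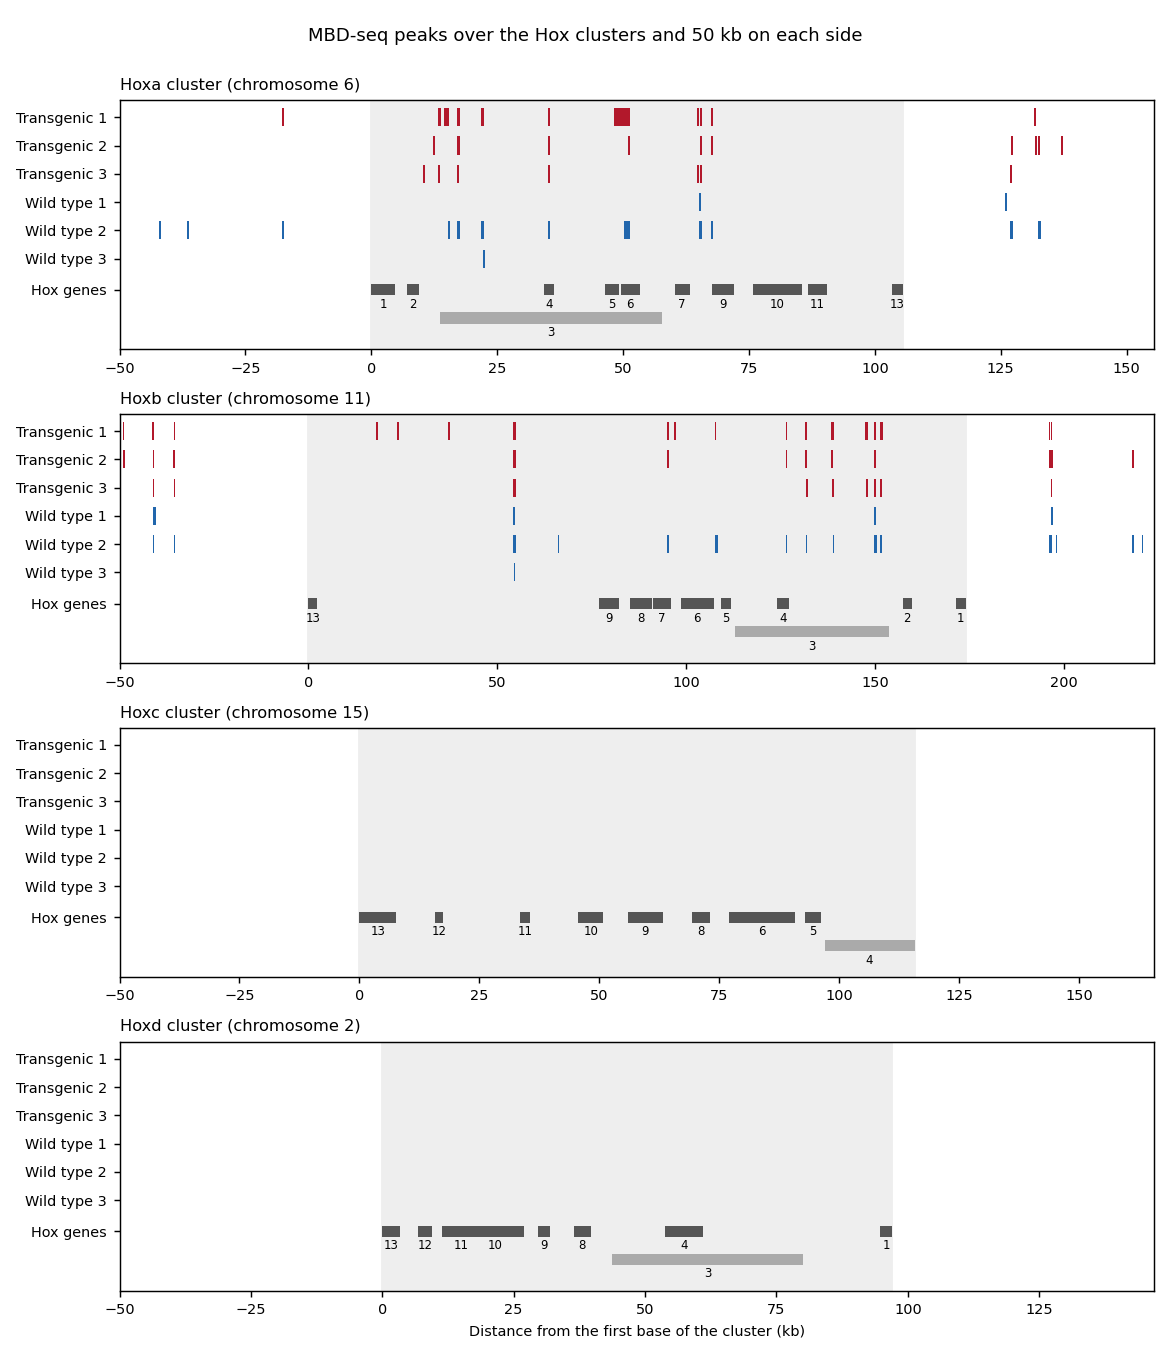
Each panel is a cluster on a grey ground with 50 kb on each side, as distance in kb from its first base. Peaks are drawn as bars for the 3 transgenic (red) and 3 wild-type (blue) libraries, at least 0.4 kb wide so that they can be seen, and genes are grey boxes marked with their number (long spans on the lower row). Inside the clusters, peaks fall between Hoxa2 and Hoxa9 and between Hoxb13 and Hoxb3, and the Hoxc and Hoxd panels are empty.

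Of the 39 genes, 28 had no peak within 1 kb of their span in any list and 11 had one in at least 1 list. These 11 genes were Hoxa2, Hoxa3, Hoxa4, Hoxa5, Hoxa6 and Hoxa9, and Hoxb3, Hoxb4, Hoxb5, Hoxb6 and Hoxb7. A Hox gene with a peak was found 9, 7 and 4 times of 39 in transgenic replicates 1, 2 and 3, against 1, 9 and 1 in wild-type replicates 1, 2 and 3. The mean was 5.17 Hox genes per list, and 0.833 over the 30640 highest-scoring peaks of each list. Hox genes are short, so the other protein-coding genes were also taken within the range of the 36 Hox genes outside group 3, from 1784 to 18760 bases. Of these 36 Hox genes 75.0% had no peak in any list, against 31.6% of 9082 other genes of that length. In single lists, a peak was found at 19.4%, 13.9% and 5.56% of these Hox genes in the transgenic lists, against 0%, 19.4% and 0% in the wild-type lists. The other genes of that length had 60.4%, 59.2% and 48.1% in the transgenic lists, against 39.5%, 59.3% and 19.2% in the wild-type lists. The Hox share was the lower in 6 of 6 lists, as a description with no test, since neighbouring genes are not independent.

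By paralogue group, the genes with peaks lay in the middle of Hoxa and Hoxb. Of the 10 Hoxa and Hoxb genes of groups 3 to 7, all but Hoxa7 had a peak in at least 1 list. Of the 4 of groups 1 and 2, Hoxa2 alone had one, in transgenic replicate 3, and of the 3 of groups 8 and 9, Hoxa9 alone had one. The 4 of groups 10 to 13, which pattern the limbs, the tail end and the genital tract, had none. Of all protein-coding genes 73.7% had a peak in at least 1 list, so by that measure the count in groups 3 to 7 is near the background. In 4 or more lists it was lower: of these 10 genes, Hoxa3, Hoxa4 and Hoxb3 alone had a peak. The share in 4 or more lists was 59.2% of protein-coding genes and 48.3% of the other genes of 1784 to 18760 bases. Genes of those groups also share islands: that at 52190387 to 52190890 counts for both Hoxa3 and Hoxa4. In Hoxa, Hoxa10, Hoxa11 and Hoxa13 lay together in a stretch of 57.9 kb without a peak in any list. In Hoxb, Hoxb13 lay in a stretch of 53.2 kb, Hoxb1 and Hoxb2 in one of 43.9 kb and Hoxb8 and Hoxb9 in one of 28.7 kb. Of all autosomal stretches, 4.94% are longer than that of Hoxa.

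**Figure D5:**
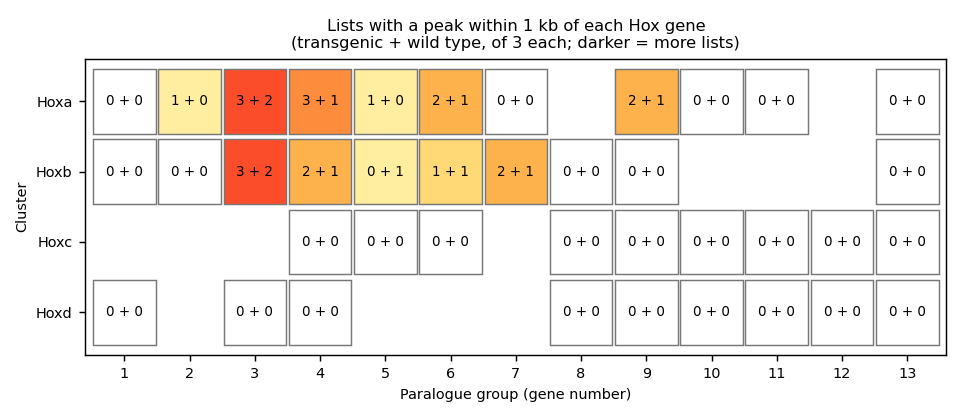
Each box is a Hox gene, placed by its cluster (rows) and paralogue group (columns), with the number of transgenic plus wild-type lists that had a peak within 1 kb, of 3 each. Peaks occur in groups 2 to 9 of Hoxa and Hoxb, with Hoxa3 and Hoxb3 at 3 transgenic and 2 wild-type lists, and all boxes of Hoxc and Hoxd hold 0.

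Hoxa3 and Hoxb3 had the most peaks. They are paralogues that pattern the hindbrain and the pharyngeal region, and both have long annotated spans (44009 and 40830 bases) that include neighbouring genes. Hoxa3, which spans Hoxa4, Hoxa5 and Hoxa6, had 7, 3 and 3 peaks in transgenic replicates 1, 2 and 3, against 0, 6 and 1 in wild-type replicates 1, 2 and 3. The bases under these peaks numbered 6784, 1151 and 1134 in the transgenic lists, against 0, 3025 and 155 in the wild-type lists. Hoxb3, which spans Hoxb4, had 6, 4 and 5 peaks in the transgenic lists, against 1, 5 and 0 in the wild-type lists. Those peaks covered 3705, 1842 and 2539 bases in the transgenic lists, against 494, 2446 and 0 in the wild-type lists. At both genes wild-type replicate 2 was within the transgenic range of peak numbers and the other wild-type libraries were below it. Their islands were 7 of 12 in Hoxa and 6 of 14 in Hoxb. Peaks in a shared span cannot be given to 1 gene, and exons and introns were not resolved.

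Hoxa4, a group 4 gene next to Hoxa5, was the only Hox gene with a peak in all 3 lists of a group and at most 1 of the other. Its island (52190387 to 52190890) had scores of 233, 55.3 and 66.9 in transgenic replicates 1, 2 and 3, which are the authors' own, and 154 in wild-type replicate 2. No peak was called there in wild-type replicates 1 and 3. Of 21887 protein-coding genes 7.72% had a peak in all 3 transgenic lists and at most 1 wild-type list, so 1 of 39 is not above the background. In the opposite direction, all 3 wild-type lists and at most 1 transgenic list, there was no Hox gene, against 0.123% of protein-coding genes. The bases under the peak were 504, 314 and 295 in the transgenic lists and 361 in wild-type replicate 2, so that library lay within the transgenic range. No Hox gene had a peak in all 3 transgenic and no wild-type list, against 0.539% of protein-coding genes. None had the reverse pattern, against 0.00457% of protein-coding genes. Over all 49943 genes these shares were 0.683% and 0.00400%. Without wild-type replicate 2 this count was 1, for Hoxa4.

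Hoxa5 and Hoxa6 carried a wide island pair that came mostly from 1 animal. The first (52203567 to 52204985, 1419 bases), over the start of Hoxa5, was found in transgenic replicate 1 alone, with a score of 133. The second (52205032 to 52206828, 1797 bases), within Hoxa6, had scores of 201 and 100 in transgenic replicates 1 and 2, against 62.0 in wild-type replicate 2. Around Hoxa5, transgenic replicate 1 had 1975 bases under peaks and the other 5 lists had 0. Around Hoxa6 the bases were 2925, 324 and 0 in transgenic replicates 1, 2 and 3, against 0, 1087 and 0 in wild-type replicates 1, 2 and 3. The peaks of transgenic replicate 1 were wide over Hoxa, with a median of 670.5 bases against 460 bases over its whole list. The part of peak width and list length in the Hoxa5 peak was not tested.

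At Hoxa2 and Hoxb5, the island near each gene touched the 1 kb margin with at most 174 bases. Hoxa2 had 126 such bases in transgenic replicate 3 alone (score 57.4), and Hoxb5 had 174 in wild-type replicate 2 alone (score 51.5). Both scores are close to the lowest score listed. Hoxb6 had a peak in transgenic replicate 1 and wild-type replicate 2, with highest scores of 115 in the transgenic and 66.7 in the wild-type library. Hoxa9, Hoxb4 and Hoxb7 each had peaks in transgenic replicates 1 and 2 and wild-type replicate 2, which are the 3 longest lists. Hoxa9, a group 9 gene known from leukaemia, had scores of 123 and 54.9 in these transgenic libraries and 75.5 in the wild-type library. Hoxb4, known from blood stem cells, had 125 and 65.0 in the transgenic and 75.8 in the wild-type library, and Hoxb7 had 129 and 84.5 in the transgenic and 227 in the wild-type library. The wild-type score lay within the pair of transgenic scores at Hoxa9 and Hoxb4 and above them at Hoxb7.

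The strongest island of any Hox cluster lay outside the Hox genes. It covered Gm11539, an annotated pseudogene in the spacer between Hoxb13 and Hoxb9 (chromosome 11, 96248450 to 96249228), and was the only 1 of the 26 islands in all 6 lists. Its scores were 619, 395 and 253 in transgenic replicates 1, 2 and 3, against 86.3, 445 and 116 in wild-type replicates 1, 2 and 3. The authors' scores are not scaled between lists, so its rank within each list is given too. The score was above 94.8%, 93.4% and 91.9% of the peaks in the transgenic lists, and above 62.5%, 96.2% and 89.7% of those in the wild-type lists. It is high in its list in all libraries but wild-type replicate 1, and the groups overlap.

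Other shared islands lay within Hoxb3 and between Hoxa7 and Hoxa9. In Hoxb3, an island at 96343923 to 96344704 that also lies in the antisense gene Hoxb3os had scores of 292, 170 and 100 in transgenic replicates 1, 2 and 3, against 65.2 and 178 in wild-type replicates 1 and 2, with no peak in wild-type replicate 3. Another, at 96325815 to 96326425, had 122, 132 and 109 in the transgenic lists, against 130 in wild-type replicate 2. At both, the score of wild-type replicate 2 lay within the transgenic range. In Hoxa, the island in most lists (52220476 to 52220973) lay between Hoxa7 and Hoxa9, outside the 1 kb margins of both. Its scores were 96.4, 61.2 and 56.0 in the transgenic lists, against 64.6 and 106 in wild-type replicates 1 and 2, with no peak in wild-type replicate 3. The island over Gm15050 inside the Hoxa3 span (52172349 to 52173022) had 183, 69.6 and 75.4 in the transgenic lists, against 66.2 in wild-type replicate 2. Wild-type replicate 2 lay above the 3 transgenic scores at the island between Hoxa7 and Hoxa9 and below them at the island over Gm15050.

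Genes that act on or lie beside the Hox clusters were counted in the same way. Of 15 Polycomb genes and H3K27 demethylase genes, 12 had a peak and 9 had one in 4 or more lists, and of 5 trithorax genes 5 and 4. Of all 21887 protein-coding genes, 73.7% had a peak in any list and 59.2% in 4 or more, so the Polycomb counts are near that background. Among 8 neighbouring and ParaHox homeobox genes 2 had a peak, and among 13 noncoding RNA genes of the clusters 3 had one: Hoxb3os, Hoxb5os and Hoxaas3. Hotair, Hottip and the 5 microRNA genes among them had none. No gene of these sets overlapped a region listed as differential in the authors' deposited table, or had a peak in all lists of 1 group and none of the other. Rnf2, a Polycomb ubiquitin ligase gene, had 1, 1 and 1 peaks in transgenic replicates 1, 2 and 3, against 1, 0 and 0 in wild-type replicates 1, 2 and 3. The genes of these sets differ in length from the Hox genes, so their counts are not comparable with those of the Hox genes.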

How the data were processed

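Per the labels' protocols, methylated DNA of 6 lungs was captured with a commercial methyl-binding kit (MethylCap). Reads were aligned with Bowtie to mm10 and differential regions came from DiffBind and edgeR, per the submitters' processing notes; versions and the settings of the peak caller: not given in the sources used here. Peaks were called by the authors per library, and the score in the deposited lists is the authors' own and is not scaled between libraries. The log2 concentrations and folds and the p-value and FDR of differential regions were copied from the authors' deposited table.

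From these, the percent of bases under peaks was computed per cluster, flank (50 kb) and rest of chromosome (first to last peak), and peaks sharing 1 bp with a gene span plus 1 kb were counted (Python 3.11.15, scipy 1.17.1). Lists were joined where peaks shared or touched at 1 bp. Libraries were compared by 2-sided exact permutation tests, by group or by sign-flip within a library, with Benjamini-Hochberg adjustment over 8 tests. Gene spans and promoters came from RefSeq tables of GRCm38.p6, which give no gene strand outside promoters. No genome sequence was used, so CpG content of islands was not computed. On simulated lists 200 of 200 planted genes among 49943 were recovered. Named genes were those with peaks in 4 or more lists, or in all lists of a group and at most 1 of the other, with the 3 leading islands and the longest stretch per cluster; other genes with peaks were added after their values were seen. The members, lists and tests were chosen with earlier results of these data known. Groups followed the sample titles, since the genotype of transgenic replicate 2 is spelled differently in the labels, and p-values measure the spread between these animals. Sequence of the microRNA genes was not used here, and the counts of Hox cofactor genes are not reported here.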

Additional observations from a re-analysis of the deposited data

How the results depend on the processing

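Peak lists show presence above a threshold and not methylation levels, and their depth is unknown. With each list held to its 30640 highest-scoring peaks, transgenic minus wild-type Hoxa coverage was -0.049 points, Hoxa minus its chromosome -0.615 points (permutation p = 0.031), Hoxb minus its chromosome -0.0335, Hoxa minus its flanks 0.0245 and Hoxb minus its flanks 0.623 (permutation p = 0.031); a mean of 0.833 Hox genes per list had a peak, against 5.17 with all peaks. With peaks under the median score of all lists left out, that mean was 2.83, Hoxa minus its flanks was 1.23 points, and Hoxa and Hoxb minus Hoxc and Hoxd, chosen after seeing the data and given no test, 1.16 points. Flanks of 100 kb gave 1.47 points for Hoxa and flanks of 20 kb gave 1.8 for Hoxb (permutation p = 0.031). The 20 kb flanks of Hoxb held no peak in any list, so that p was fixed. The number of listed differential regions was 0 within 50 kb and 1 within 500 kb. Over the 30640 highest-scoring peaks, Hoxa kept a peak in wild-type replicate 3 alone, and the Hoxb flanks kept none. The permutation p-values there, of Hoxa against its chromosome and of Hoxb against its flanks, thus decide nothing. Apart from the alternatives' own construction (fewer peaks, other extents), the cause was not tested.

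Leaving out each library in turn, Hoxa coverage, transgenic minus wild type, was 0.534 to 3.56 points and that of Hoxb 0.618 to 2.14. Against the chromosome the range was 0.351 to 1.55 for Hoxa, -0.182 to 0.191 for Hoxb (-0.182 without transgenic replicate 1 and -0.0249 without transgenic replicate 3), -1.94 to -1.46 for Hoxc and -1.68 to -1.27 for Hoxd. Against the flanks it was 0.929 to 2.31 for Hoxa and 0.0117 to 0.474 for Hoxb, and Hoxa and Hoxb minus Hoxc and Hoxd was 1.45 to 2.49. With 5 pairs no permutation p can pass 0.05. Hox genes with a peak in all lists of 1 group and none of the other numbered 0 to 1, and Hox genes with a peak averaged 4.4 to 6 per list.

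With the replicate number as a block, the Hoxa difference of 2.44 points had an exact permutation p = 0.5 and the Hoxb difference of 1.39 points p = 0.5, in 3 pairs that cannot go below 0.25. Whether the numbers pair the animals is not known. Over autosomal bins of 100 kb the deviations of same-numbered libraries correlated at r = 0.0088, 0.12 and 0.16. Transgenic replicate 1 correlated best with wild-type replicate 2 (r = 0.19), while transgenic replicates 2 and 3 correlated best with the wild-type library of their own number. These values are low and cannot decide the pairing. Gene margins of 0 and 2 kb and an overlap of 100 bp changed no count of Hox genes by over 1.5 times.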

Other observations

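Scaled by the share of all autosomes under peaks in the same library, Hoxa stood at 3.06, 0.882 and 1.43 times that share in transgenic replicates 1, 2 and 3, against 0.388, 1.70 and 0.554 times in wild-type replicates 1, 2 and 3. Hoxb stood at 1.61, 0.759 and 1.32 times in the transgenic replicates, against 0.504, 1.22 and 0.692 times in the wild-type replicates. Transgenic replicate 2 and wild-type replicates 1 and 3 were below 1 at both clusters and the other 3 libraries were above 1 at both, so the libraries kept the same side at both clusters without following genotype.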
